A study of Mus musculus with 6 samples.

Results

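Cells of fat tissue read the metabolites around them through a small set of G protein-coupled receptors, and 8 of the mouse genes for these receptors are described here: Ffar1, Ffar2, Ffar3, Ffar4, Hcar1, Hcar2, Gpr84 and Sucnr1. They were taken from the deposited table by their gene IDs, 8 of 24415 in all. The set was chosen by reading the knockout against WT values of these same libraries, among them the low Ffar1 and Ffar2, so the knockout values of the receptors are given as a description and support nothing. The libraries hold RNA of the inguinal white fat, which lies under the skin, of 3 WT and 3 Hsp20 KO mice, 1 library per mouse. All 6 were 12 weeks old, on a C57BL/6 background and not fasted. Hspb6 is the gene of Hsp20, a small heat shock protein. The comparison is between knockout and control fat, and neither the part of Hspb6 that the allele lacks nor how the knockout was made is given in the sources used here.

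Free fatty acid receptors differ in the chain length they recognise. Ffar1 and Ffar4 respond to medium- and long-chain fatty acids, whereas Ffar2 and Ffar3 respond to short-chain acids such as acetate, propionate and butyrate. Hcar1 senses lactate, Hcar2 senses the ketone body beta-hydroxybutyrate and niacin, Sucnr1 senses succinate, and Gpr84 is activated by medium-chain fatty acids. In fat cells Hcar1 and Hcar2 couple to inhibitory G proteins, which lower cAMP and restrain lipolysis. Ffar1 is best known from pancreatic beta cells, and Gpr84 from myeloid cells.

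Of the 8 genes, 3 lie side by side on the same strand of chromosome 7 (GRCm38, minus strand). RefSeq places Ffar2 at chr7:30818031-30823775, Ffar3 at chr7:30854330-30856178 and Ffar1 at chr7:30860568-30861470. The gap between Ffar2 and Ffar3 is 30.6 kb and that between Ffar3 and Ffar1 is 4.4 kb. The targeted gene Hspb6 lies on the plus strand of the same chromosome, 262.6 kb from the nearest of them. Hcar1 and Hcar2 form a second pair, 11.2 kb apart on chromosome 5. Ffar4 lies on chromosome 19, Gpr84 on chromosome 15 and Sucnr1 on chromosome 3. GENCODE gives Ffar1, Hcar1 and Hcar2 a single exon, while Ffar4 has 3 exons. Gpr84 overlaps an annotated antisense gene and no strand setting is given, so reads of the pair cannot be told apart.

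The bases upstream of the 3 neighbouring receptor genes are shown because all 3 had lower CPM in the libraries labelled knockout. Ffar3 was close to the limit of detection and did not pass the filter. Each run is 5′ to 3′ on the minus strand, from RefSeq on GRCm38.p6, and stops before the gene's first annotated base. That limit leaves 156 bases for Ffar1, whose GENCODE model starts 94 bases upstream of the RefSeq one, and 250 for the others. RefSeq lists 4 starts for Ffar2, and the one shown is the farthest upstream. Capitals mark a match to a searched motif.
Ffar1, chr7:30861565-30861720: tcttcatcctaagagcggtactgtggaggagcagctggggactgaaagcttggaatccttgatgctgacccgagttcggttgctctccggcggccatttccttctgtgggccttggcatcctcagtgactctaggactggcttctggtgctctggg
Ffar3, chr7:30856179-30856428: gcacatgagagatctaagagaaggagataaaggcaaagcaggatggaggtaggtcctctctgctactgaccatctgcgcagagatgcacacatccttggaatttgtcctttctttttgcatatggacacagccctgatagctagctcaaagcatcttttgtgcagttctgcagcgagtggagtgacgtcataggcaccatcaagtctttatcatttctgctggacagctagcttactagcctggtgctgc
Ffar2, chr7:30823776-30824025: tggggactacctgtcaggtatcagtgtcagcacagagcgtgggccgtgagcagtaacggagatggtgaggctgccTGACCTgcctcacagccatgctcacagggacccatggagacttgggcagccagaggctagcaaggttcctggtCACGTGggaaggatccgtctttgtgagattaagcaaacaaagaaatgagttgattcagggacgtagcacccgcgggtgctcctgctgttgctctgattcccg

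Both strands were searched for 5 motifs: AGGTCA (part of a nuclear receptor site), the E-box CACGTG, the TATA box TATAAA, the CCAAT box, and the PU.1 core GAGGAA. The Ffar2 window held TGACCT, the reverse complement of AGGTCA, and CACGTG, and these do not overlap. Of 32851 promoter windows of the same length in RefSeq, 14% held the first and 6.02% the second. The windows of Ffar1 and Ffar3 held none of the 5. The matches at Ffar2 depended on the start, and only the window shown held the E-box. The window of the next Ffar2 start downstream held none of the 5. The windows of the starts farther downstream held the nuclear receptor motif and the PU.1 core, and the last of them also a further motif of the 5. A match is a description of the letters, not a site, and the share of 156-base windows with a match ran from 3.03% for CACGTG to 20.9% for CCAAT.

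Libraries held between 14078936 and 32648746 counts, and the library labelled Hsp20 KO replicate 3 was the smallest. Levels are given as CPM, which are counts scaled to library size with TMM factors, and differences as log2 changes of Hsp20 KO over WT from edgeR's quasi-likelihood fit to 15994 genes. A gene is called when its Benjamini-Hochberg adjusted p is under 0.05, and 7.65% of tested genes were called, 3.42% lower and 4.23% higher. Hspb6 had 12.6, 9.43 and 8.95 CPM in WT and 8.86, 1.51 and 3.94 CPM in the libraries labelled knockout, so replicate 1 of these was close to WT for the targeted gene. Its log2 change of -1.08 ± 0.51 (SE) was not called (edgeR adjusted p = 0.227), and without that library it was -1.99 (edgeR adjusted p = 0.0221). Hspb6 overlaps the annotated genes Gm38670 and Lin37, and no strand setting is given, so reads may be shared among them. Gm38670 had 0 CPM in each WT library and 0.904, 0.0458 and 0.0742 CPM in knockout replicates 1 to 3. Whether the Hspb6 reads of replicate 1 come from an intact transcript was not tested. All knockout directions below therefore concern the libraries labelled knockout. The adipocyte transcript Adipoq stood at 1630 ± 163 CPM in WT and 1313 ± 263 CPM in the knockout group (SD, n = 3 each), and both groups thus held the defining transcript of fat cells.

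Of the 8 receptors 6 passed the filter on low counts and 2, Ffar3 and Gpr84, did not. Ffar1 passed through its WT libraries alone. The fit called Ffar1 and Ffar2, both lower, against a background of 7.65% of tested genes called. The other 4, Ffar4, Hcar1, Hcar2 and Sucnr1, were not called, and their groups overlapped. For reference, the groups failed to overlap for 32.5% of tested genes.

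Ffar1, the long-chain fatty acid receptor of islets, had 113, 101 and 128 counts in WT replicates 1 to 3. Knockout replicates 1 to 3 had 3, 1 and 0 counts of it. As CPM this was 4.39, 3.3 and 3.87 against 0.108, 0.0458 and 0. Transcripts of this receptor were nearly gone from all 3 knockout libraries, replicate 1 included, although the CPM of Hspb6 in that library was close to WT. Summed over mice, 342 counts against 4 give a ratio of 60.2 between WT and knockout (95% counting interval 23.3 to 222.1). The interval covers counting error only, not the spread between mice. The fitted log2 change was -5.83 ± 0.41 (SE). With any 1 library left out Ffar1 stayed called, and its log2 change ran from -6.86 to -5.49. In bulk tissue, fewer cells of a type and less RNA per cell cannot be told apart, for this gene and those that follow.

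Ffar2, a receptor for acetate and propionate, was far more abundant. It stood at 112.9, 107.7 and 120.2 CPM in WT and at 35.5, 41.9 and 68.9 CPM in knockout replicates 1 to 3. The lowest WT library lay above the highest knockout one. The mean went from 113.6 ± 6.27 to 48.8 ± 17.7 CPM (SD, n = 3 each), and the fitted log2 change was -1.23 ± 0.22 (SE). The call on Ffar2 was lost without WT replicate 1, 2 or 3 (log2 change -1.24, -1.26 and -1.18) or knockout replicate 2 (-1.13), and it was kept without knockout replicate 1 (-1.04) or 3 (-1.55).

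Ffar3, the second short-chain receptor, was close to the limit of detection. It had 16, 7 and 14 counts in WT and 5, 1 and 0 in the knockout libraries, or 0.621, 0.228 and 0.423 CPM against 0.181, 0.0458 and 0. The groups did not overlap in CPM. The ratio of summed counts, 37 against 6, was 4.34 (95% counting interval 1.82 to 12.6). That interval leaves out the spread between mice. In edgeR's fit without a filter Ffar3 was not called (log2 change -2.13, adjusted p = 0.132). A count of 3 corresponds to between 0.0907 and 0.223 CPM over the 6 libraries, so differences between single knockout libraries were not detectable at this depth.

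Ffar4, the long-chain receptor of fat cells and macrophages, had 15.3, 11.5 and 8.41 CPM in WT and 9.98, 12.3 and 14.8 CPM in knockout. The groups covered nearly the same range. Its log2 change was 0.07 ± 0.23 (SE), and it was negative without WT replicate 3 (-0.12) or knockout replicate 3 (-0.07). Of the pair of long-chain receptors, Ffar1 had the lower CPM in WT and was the one nearly lost in the knockout libraries.

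Hcar1, the lactate receptor, was the most abundant of the 8, at 127.3, 169.6 and 208.5 CPM in WT and 129.2, 103.0 and 182.4 CPM in knockout. The highest knockout library lay above the middle WT one. Its log2 change was -0.29 ± 0.24 (SE). Hcar2, its neighbour on chromosome 5 and the receptor for beta-hydroxybutyrate, had 30.5, 29.1 and 37.7 CPM in WT and 30.3, 28 and 51.9 CPM in knockout. All but the third library of each group lay between 28 and 30.5 CPM. The log2 change of Hcar2 was 0.17 ± 0.23 (SE), and it was -0.15 without knockout replicate 3.

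Sucnr1, the succinate receptor, had 26.5, 28.1 and 21.6 CPM in WT and 15.4, 21.8 and 34.4 CPM in knockout. The knockout libraries spread both below and above WT. Its log2 change was -0.11 ± 0.26 (SE), and it was 0.14 without knockout replicate 1. Gpr84, the medium-chain receptor of myeloid cells, had 2, 5 and 11 counts in WT and 4, 0 and 0 in knockout. These groups overlapped, and the ratio of 18 to 4 summed counts was 3.17 (95% counting interval 1.04 to 12.9). That interval leaves out the spread between mice, and edgeR's fit without a filter did not call Gpr84 (adjusted p = 0.410).

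**Figure D1:**
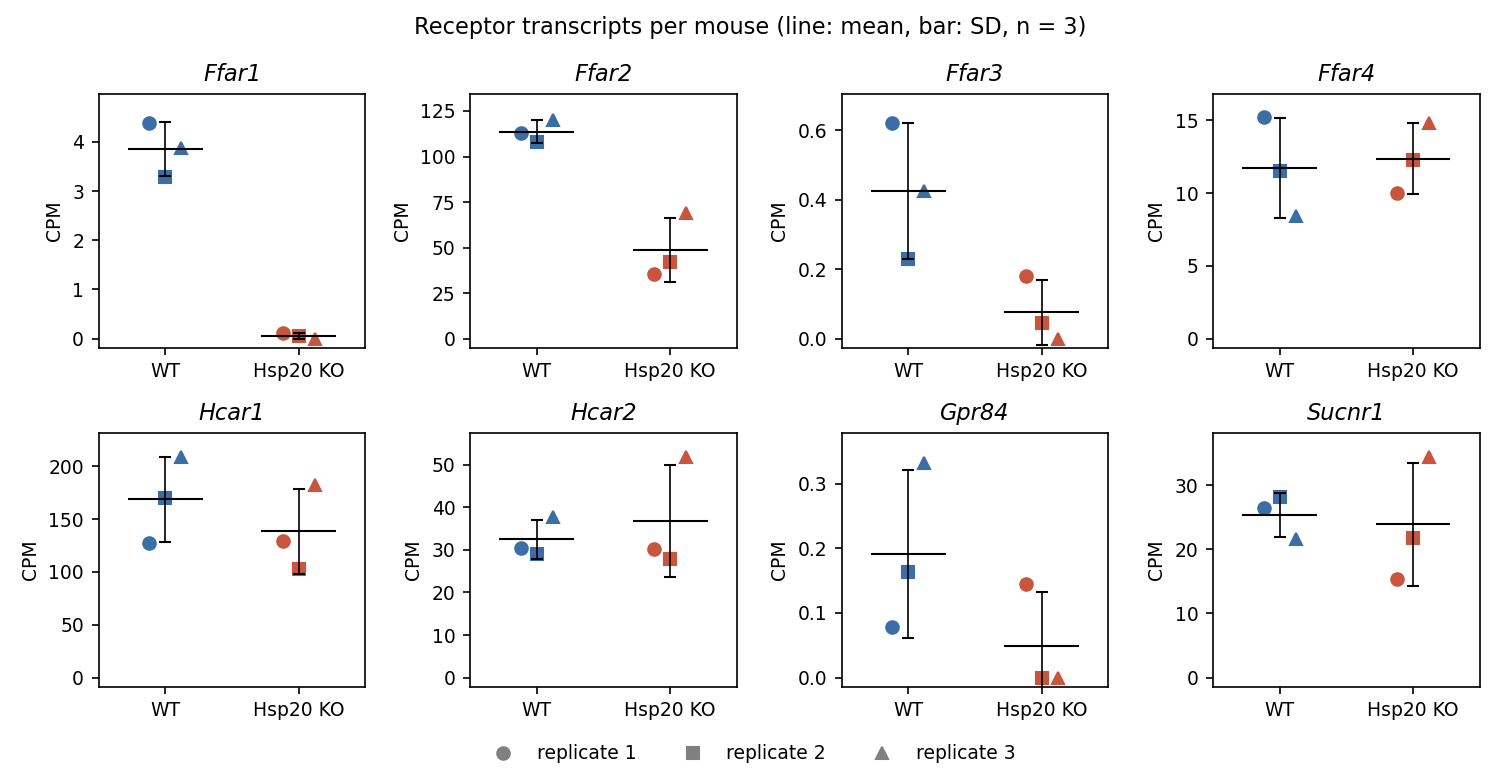
CPM of each receptor in every library (circle, square and triangle for replicates 1, 2 and 3; line, mean; bar, SD; linear axes of different range). Ffar1, Ffar2 and Ffar3 show no overlap between WT and the libraries labelled knockout, while the other 5 receptors do overlap.

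Knockout replicate 3 held the highest value of its group for all 5 receptors that had a mean of at least 1 CPM in both groups, Ffar2, Ffar4, Hcar1, Hcar2 and Sucnr1. This is the library with the fewest counts, and the part of depth in that pattern was not tested. Ratios of counts within 1 library do not depend on scaling between libraries, and they were taken after the values had been seen. Ffar2 had 3.70, 3.70 and 3.19 counts per Hcar2 count in WT and 1.17, 1.5 and 1.33 in knockout. The spread of Ffar2 over the knockout mice was therefore narrower when read against Hcar2 than as CPM. Against Sucnr1 the same ratio lay between 3.83 and 5.58 in WT and between 1.92 and 2.30 in knockout. Against Hcar1 it lay between 0.576 and 0.887 in WT and between 0.275 and 0.407 in knockout, and against Ffar4 between 7.40 and 14.3 and between 3.42 and 4.64. In each of these 4 ratios the lowest WT library exceeded the highest knockout one.

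**Figure D2:**
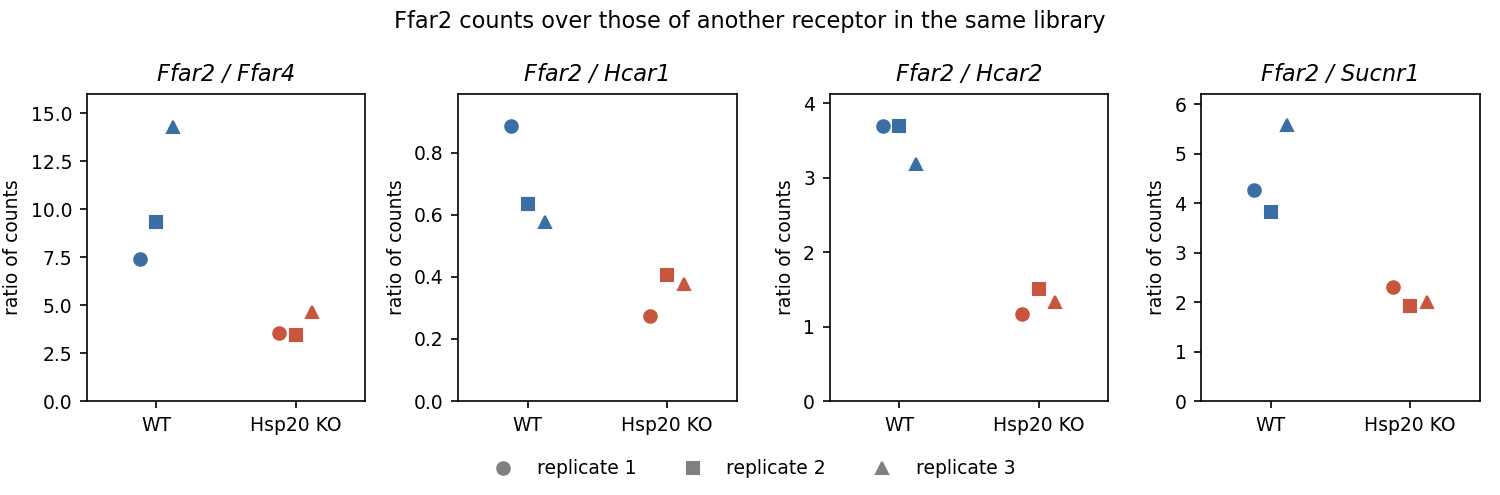
Counts of Ffar2 divided by counts of Ffar4, Hcar1, Hcar2 or Sucnr1 in the same library (circle, square and triangle for replicates 1, 2 and 3; linear axes from 0). The 3 knockout libraries lie below the 3 WT libraries in every panel, for example 1.17 to 1.5 against 3.19 to 3.70 for Hcar2.

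Levels of different receptors were compared as CPM per kb of GENCODE exon. In WT the order was Hcar1 with 51.3 ± 12.4 CPM per kb (SD, n = 3), Ffar2 with 40.7 ± 2.25, Hcar2 with 16.8 ± 2.38 and Sucnr1 with 15.5 ± 2.09. Below these stood Ffar4 with 8.37 ± 2.45 CPM per kb, Ffar1 with 0.922 ± 0.131, Ffar3 with 0.229 ± 0.106 and Gpr84 with 0.111 ± 0.0752. The ranges of the libraries overlapped between the neighbours Hcar1 and Ffar2, Hcar2 and Sucnr1, and Ffar3 and Gpr84, and did not overlap between the other neighbours. The lactate receptor and an acetate receptor thus led this set in WT fat. In the knockout group Ffar2 came after Hcar2, with 17.5 ± 6.35 against 19.0 ± 6.84 CPM per kb, and their ranges overlapped. Ffar1 stood at 0.0123 ± 0.0130 CPM per kb. Its range overlapped that of Gpr84, and that of Gpr84 overlapped Ffar3, with 4, 4 and 6 summed counts behind them, so these 3 have no order in the knockout group.

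The length used for Ffar1 matters, since its GENCODE exon has 4175 bases and its RefSeq span 903. Per kb of coding length, 900 bases for Ffar1, the WT level of Ffar1 was 4.28 ± 0.606 CPM per kb, and the WT order of the 8 receptors was the same. In the knockout group Ffar2 then came before Hcar2, and their ranges again overlapped.

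**Figure D3:**
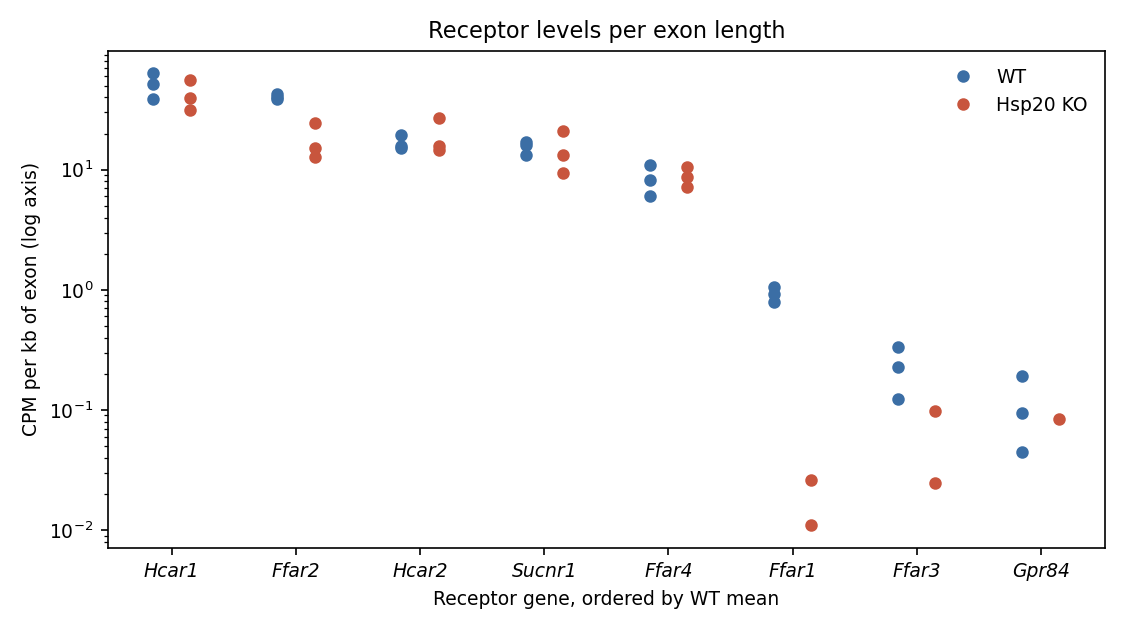
CPM per kb of GENCODE exon for each receptor on a log axis, ordered by the WT mean (blue, WT; red, Hsp20 KO; 1 point per library). Libraries with no count cannot be drawn on this axis, which leaves out 1 knockout library for Ffar1, 1 for Ffar3 and 2 for Gpr84.

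Because 3 of the receptors lie near Hspb6, all genes within 1 Mb of Ffar1 were described by position. Of 83 genes there, 62 were tested, and 3 were called higher and 9 lower, or 19.4% called. That share includes Ffar1 and Ffar2, whose low values were among those by which the set was chosen. Leaving out the receptors, 60 were tested, with 3 higher and 7 lower, or 16.7% called against the background of 7.65%. Their median log2 change was -0.03. The median of all tested genes was 0.00. On chromosome 7 as a whole 9.72% of 1235 tested genes were called. The number called in the window was 6 with WT replicate 1 left out, 4 with WT replicate 2 and 3 with WT replicate 3 left out, and it was 6 with the replicate number as a block.

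Lower values ran through a continuous stretch on the Hspb6 side of Ffar1. Going outward from Ffar1, the next tested genes were Ffar2, Krtdap, Dmkn and Sbsn, and all 4 were called lower. Sbsn, the epidermal protein suprabasin, had 64.0, 52.7 and 64.3 CPM in WT and 10.2, 9.57 and 11.2 CPM in knockout. Its groups stood far apart, and the knockout values were close together, replicate 1 included (log2 change -2.55 ± 0.11 SE, edgeR adjusted p = 2.02e-04). Dmkn, the epidermal protein dermokine, went from 3.16 ± 1.20 to 0.879 ± 0.192 CPM (edgeR adjusted p = 0.0248). Krtdap, a keratinocyte differentiation protein, was near the limit of detection, with 0.937 ± 0.296 CPM in WT and 0.242 ± 0.176 in knockout (edgeR adjusted p = 0.0431). The keratinocyte and gland markers, 8 genes with summed levels of 7.11 to 8.98 CPM in WT and 6.37 to 8.89 in knockout, overlapped between the groups.

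Beyond this stretch the values differed. On the far side of Ffar1 the B cell receptor gene Cd22, 11.9 kb from Ffar1 by midpoints, had 168.7, 168.4 and 159.1 CPM in WT and 100.5, 206.8 and 108.8 in knockout, and the groups overlapped (log2 change -0.25 ± 0.25 SE, edgeR adjusted p = 0.575). Cd22 is also 1 of the 8 B cell markers, whose sums were 539.9, 1059 and 537.0 CPM in knockout replicates 1 to 3. The part of B cell content in its values was not tested, so its missing call cannot mark where the stretch ends. Mag, a myelin glycoprotein, and Usf2, a transcription factor, came next, with log2 changes of -0.52 ± 0.23 and 0.06 ± 0.08 SE (edgeR adjusted p = 0.203 and 0.642). Between Hspb6 and Ffar1, with the receptors left out, 14 genes were tested: Sbsn, Dmkn and Krtdap were lower, and Cox6b1, a subunit of cytochrome c oxidase, was higher (132.4 ± 6.87 to 198.1 ± 28.8 CPM, edgeR adjusted p = 0.0286). Farther out, Cox7a1, another oxidase subunit, went from 2.19 ± 0.661 to 16.0 ± 7.61 CPM (edgeR adjusted p = 0.0126) and Arhgap33 from 3.97 ± 0.184 to 6.73 ± 0.768 CPM (edgeR adjusted p = 0.0255). Cox6b1 and Arhgap33 were named after their values were seen, to complete the 3 that rose. Cox7a1 is also 1 of the 12 brown fat markers and is counted both there and in this window. It had 7.30, 21.2 and 19.7 CPM in knockout replicates 1 to 3, where the brown fat sums were 277.7, 812.6 and 960.3 CPM. The part of brown fat content in its values was not tested. Zfp14, a zinc finger gene, went from 7.23 ± 0.843 to 1.89 ± 0.476 CPM (edgeR adjusted p = 0.00486) and Tbcb, a tubulin folding cofactor, from 30.6 ± 0.532 to 21.4 ± 0.989 CPM (edgeR adjusted p = 0.0120). Position and the genotype labels go together for every gene of this window, and their effects cannot be told apart here.

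**Figure D4:**
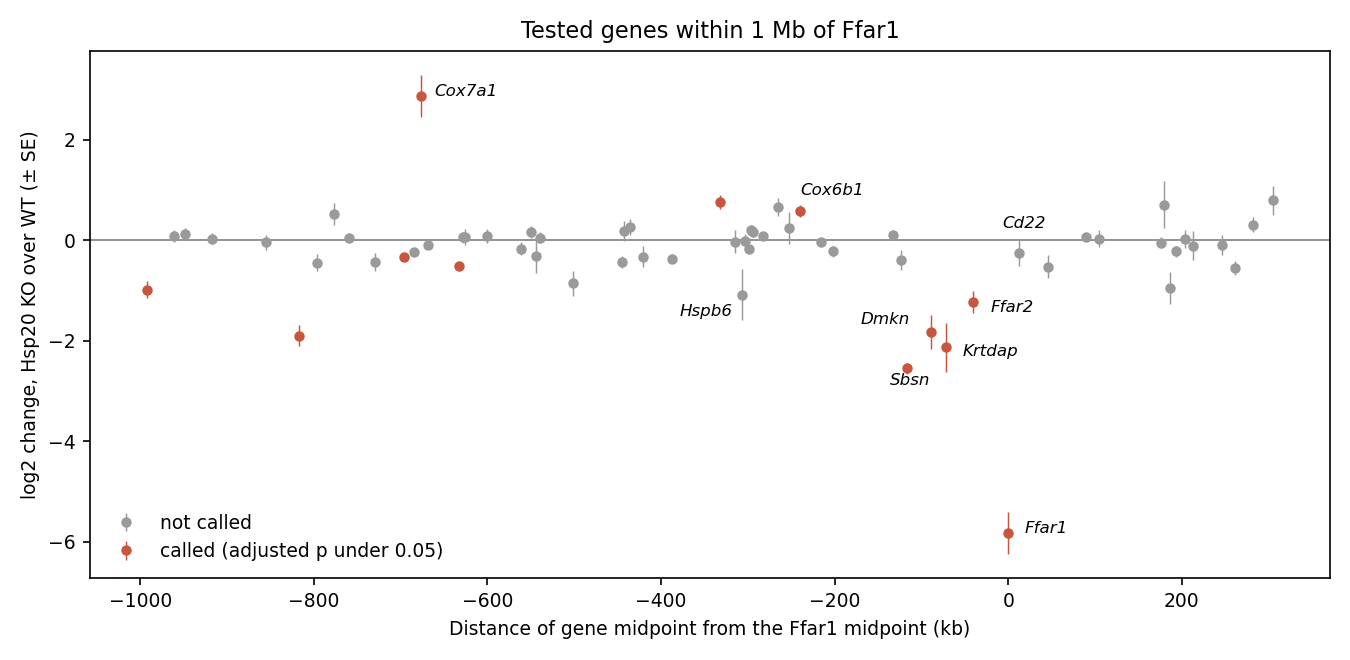
Log2 change of Hsp20 KO over WT (± SE, edgeR) of the 62 tested genes within 1 Mb of Ffar1, against the distance of each gene's midpoint from that of Ffar1 in kb (red, called; gray, not called). Sbsn, Dmkn, Krtdap, Ffar2 and Ffar1 form a run of called genes below 0. Cd22, the next tested gene and also a B cell marker, was not called.

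Among markers of cells that can carry these receptors, the neutrophil sums did not overlap between the groups, while the macrophage and adipocyte sums did. The part of these cells in the receptor values was not tested. Neutrophils and macrophages are known to express Ffar2, Hcar2 and Gpr84. The 10 neutrophil markers found summed to between 133.2 and 135.2 CPM in WT and between 65.5 and 80.8 CPM in knockout, the libraries in the order 80.8, 70.2 and 65.5. Of 8 tested 3 fell, beside 3.42% of all tested genes: Cxcr2, a chemokine receptor (42.2 ± 2.22 to 28.3 ± 1.15 CPM), Mmp9, a gelatinase (48.5 ± 5.15 to 18.2 ± 5.03), and Csf3r, the G-CSF receptor (30.5 ± 3.87 to 19.4 ± 2.04). Their edgeR adjusted p ran from 0.00956 to 0.0244. Another 2 of the 8 had a log2 change above 0, and these were not called. S100a8, a calcium-binding protein of neutrophils, had 3.74 ± 1.46 CPM in WT and 1.45 ± 0.397 in knockout (edgeR adjusted p = 0.0567). DESeq2 called 6 of the 8 lower, and edgeR with the replicate block 2 of the 8. The number tested differed in other settings. Without a filter edgeR called 5 of 10, without WT replicate 2 or 3 it called 1 of 9, and without knockout replicate 3 it called 2 of 10. Knockout replicate 3, the smallest library, had the highest Ffar2 and the lowest neutrophil sum of its group. It was also highest in its group for each of the other abundant receptors, and a link of Ffar2 to neutrophil content was not tested.

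The 16 macrophage markers summed to between 1950 and 2269 CPM in WT and between 1553 and 2037 in knockout, so the sums overlapped. For this list and the adipocyte list, edgeR's share of all tested genes called lower was 3.42%. Of the 16 macrophage markers, edgeR called 1 lower and DESeq2 called 8 lower, and 10 had an unadjusted edgeR p under 0.05. edgeR called 9 lower without knockout replicate 1 and 0 without WT replicate 2, WT replicate 3 or knockout replicate 3 or with the replicate block (7, 7, 6 and 10 at an unadjusted p under 0.05). Adgre1 and Csf1r, surface receptors of macrophages, had log2 changes of -0.55 ± 0.19 and -0.13 ± 0.13 SE (edgeR adjusted p = 0.113 and 0.570). The 10 adipocyte markers summed to between 29061 and 33822 CPM in WT and between 20551 and 30374 in knockout. Of these Acvr1c, the activin receptor-like kinase of fat cells, fell from 121.6 ± 7.43 to 77.6 ± 7.15 CPM (edgeR adjusted p = 0.0114), and DESeq2 called 2 of the 10 lower. edgeR called 3 without knockout replicate 1 and 0 without WT replicate 2 or 3 (1 at an unadjusted p under 0.05 in each). B cell markers summed to between 827.2 and 849.4 CPM in WT and to 539.9, 1059 and 537.0 in knockout replicates 1 to 3. Of the 10 islet and enteroendocrine markers Ins2, Sst, Pdx1 and Pyy were at 0 in every library, and the 10 summed to at most 0.668 CPM in any. Which cells hold the Ffar1 reads was not tested.

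Other marker lists are given by their counts, which stand beside 4.23% of all tested genes called higher and 3.42% called lower. Brown fat markers rose in 10 of 12, among them Elovl3, an elongase, Cidea, a lipid droplet protein, Cpt1b, a carnitine transferase, and Cpn2 (edgeR adjusted p from 0.00324 to 0.0116), and limma-voom called 6. The count was 4 with the replicate block, 2 without WT replicate 2 or 3 and 6 without knockout replicate 2 or 3. Their sums were 101.1 to 142.0 CPM in WT and 277.7, 812.6 and 960.3 in knockout replicates 1 to 3. Of 7 blood cell markers 5 fell: Alas2, an enzyme of heme synthesis, and the globin genes Hbb-bt, Hbb-bs, Hba-a1 and Hba-a2, whose near-identical copies share reads and are uncertain. The count of blood cell calls was 3 without WT replicate 2 or 3. The lists of mast cell and dendritic cell markers had 1 call each, Hdc and Cd209a, both lower. For mast cells edgeR called 4 lower without knockout replicate 1 and 0 without WT replicate 2, WT replicate 3 or knockout replicate 2 (1 at an unadjusted p under 0.05 in each). For dendritic cells it called 0 with the replicate block and without WT replicate 2, WT replicate 3, knockout replicate 2 or knockout replicate 3 (2, 3, 1, 1 and 2 at an unadjusted p under 0.05). edgeR called 0 of the 8 B cell, 8 T cell, 5 keratinocyte and gland and 6 endothelial markers tested. At an unadjusted p under 0.05 there were 0, 2, 0 and 2 of these, and limma-voom called 0 in each list while DESeq2 called 1 T cell marker and 0 in the other lists. Without knockout replicate 2, whose B cell sum was the highest, edgeR called 7 of the 8 B cell markers lower. It called 1 T cell marker lower without WT replicate 1 and 1 higher without knockout replicate 3.

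Of 28 genes for G proteins, arrestins, receptor kinases and their regulators, which act downstream of the receptors, 2 rose and 2 fell, with a median log2 change of -0.01. Over all tested genes 4.23% rose and 3.42% fell, 7.65% in all, and the median was 0.00; the counts of this and the following lists stand beside these shares. The risers were Gnao1, an inhibitory G protein subunit, from 11.9 ± 0.695 to 29.2 ± 11.6 CPM (edgeR adjusted p = 0.0404), and Gnb4, a beta subunit, from 18.6 ± 0.747 to 27.6 ± 4.81. Gnaq, the subunit that couples receptors such as Ffar1 to phospholipase C, fell from 135.4 ± 10.9 to 102.9 ± 4.47 CPM (edgeR adjusted p = 0.0346), and Grk5, a receptor kinase, from 43.9 ± 1.54 to 29.0 ± 3.5. Gnai2, the inhibitory subunit used by Hcar1 and Hcar2, and Arrb2, the arrestin that Ffar4 recruits, had log2 changes of -0.05 ± 0.09 and 0.04 ± 0.12 SE (edgeR adjusted p = 0.788 and 0.852). These 4 calls became 2 without WT replicate 1, 1 without knockout replicate 3 and 0 without WT replicate 2 or 3 (edgeR, 8 at an unadjusted p under 0.05 in each of the last), and 0 with the replicate block, where 10 had an unadjusted p under 0.05. DESeq2 called 8.

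Of 30 tested effectors of cAMP and phospholipase C, 4 rose, beside 4.23% of all tested genes, and the median log2 change was -0.03. Prkce, a protein kinase C, went up from 53.5 ± 4.36 to 99.1 ± 10.6 CPM (edgeR adjusted p = 0.00601), Prkaca, the catalytic subunit of protein kinase A, from 159.1 ± 9.10 to 224.1 ± 11.9, Prkar2b, its regulatory subunit in fat, from 428.5 ± 10.1 to 664.6 ± 127.2, and Pde4a, a cAMP phosphodiesterase, from 13.8 ± 1.18 to 21.1 ± 2.36. Pde3b, the phosphodiesterase through which insulin restrains lipolysis, had a log2 change of -0.20 ± 0.15 SE (edgeR adjusted p = 0.444). Without WT replicate 1 the list had 2 calls, without WT replicate 2 or 3 it had 1, and with the replicate block 1.

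Lists of genes around the receptors' ligands were described next, and the brown fat markers moved with several of these lists. Over knockout replicates 1 to 3 the brown fat sums of 277.7, 812.6 and 960.3 CPM had the same order as the sums for short- and medium-chain acids (2606, 3067 and 3409 CPM), lactate (2354, 2982 and 3373) and ketone bodies and succinate (2800, 3143 and 3393). The long-chain sums did not have that order (27104, 26012 and 37765 CPM). The part of brown fat markers in the values of these lists was not tested. In the list of long-chain fatty acid release and uptake 4 of 23 rose, beside 4.23% of all tested genes (median log2 change 0.20): Fabp5, a fatty acid carrier, from 94.1 ± 10.6 to 198.6 ± 35 CPM (edgeR adjusted p = 0.00915), Plin5, a lipid droplet protein, from 9.55 ± 2 to 43.5 ± 22.6, Acsl1, an acyl-CoA synthetase, from 1291 ± 62.4 to 2345 ± 623.2, and Acsl3, from 12.3 ± 0.508 to 16.8 ± 0.810. The lipases Pnpla2 and Lipe and the fatty acid carrier Cd36 had log2 changes of 0.11 ± 0.14, 0.35 ± 0.16 and -0.04 ± 0.20 SE (edgeR adjusted p = 0.666, 0.206 and 0.919). The 4 calls became 1 without WT replicate 1 or 2 or knockout replicate 2 or 3, 0 without WT replicate 3 (edgeR, 6 at an unadjusted p under 0.05) and 1 with the replicate block.

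Handling of short- and medium-chain acids, the ligands of Ffar2, Ffar3 and Gpr84, had 8 of 20 tested genes higher, beside 4.23% of all tested genes, and a median log2 change of 0.36. Acss2, which activates acetate to acetyl-CoA, went up from 149.1 ± 11.1 to 418.1 ± 97.6 CPM (edgeR adjusted p = 0.00655), Hadh, an enzyme of beta-oxidation, from 249.4 ± 8.03 to 412.5 ± 57.6, Crat, carnitine acetyltransferase, from 235.7 ± 19.3 to 346.4 ± 37.4, and Acsf2, an acyl-CoA synthetase, from 66.6 ± 2.91 to 99.04 ± 13.9. Acss2, an enzyme for acetate, was higher and Ffar2, a receptor for it, was lower in these libraries. The low Ffar2 was among the values by which the set was chosen, and a link between these genes was not tested. The count was 2 without WT replicate 1 or knockout replicate 2 or 3, 1 without WT replicate 2 or 3, and 1 with the replicate block.

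In the list of lactate handling, which also holds genes of pyruvate, 4 of 12 rose, beside 4.23% of all tested genes (median 0.54): Mpc1 and Mpc2, the mitochondrial pyruvate carrier, from 142.6 ± 7.63 to 294.7 ± 61.5 and from 76.7 ± 9.07 to 140.9 ± 17.5 CPM, Ldhd, a D-lactate dehydrogenase, from 29.4 ± 2.82 to 50.1 ± 7.44, and Pkm, pyruvate kinase, from 473.0 ± 27.9 to 1083 ± 286.6 (edgeR adjusted p from 0.0112 to 0.0178). These 4 are genes of pyruvate and D-lactate, so the calls do not describe supply or removal of the Hcar1 ligand. Ldha, a lactate dehydrogenase subunit, lay at the threshold (log2 change 0.51 ± 0.13 SE, edgeR adjusted p = 0.050), and Slc16a1, a lactate carrier, was at -0.36 ± 0.25 (0.407). The count was 0 without WT replicate 2 (edgeR, 8 at an unadjusted p under 0.05), 1 without WT replicate 3, 2 with the replicate block and 9 with DESeq2.

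For ketone bodies and succinate, the ligands of Hcar2 and Sucnr1, 6 of 18 tested genes rose and 1 fell, 7 called beside 7.65% of all tested genes (median 0.29). Aacs, which activates acetoacetate for lipid synthesis, went up from 189.1 ± 26.3 to 319.9 ± 39.3 CPM (edgeR adjusted p = 0.0223). Sdha, Sdhb and Sdhd, subunits of the enzyme that oxidises succinate, rose from 565.4 ± 44.3 to 861.5 ± 128.9, from 121.8 ± 5.37 to 181.1 ± 24.0 and from 107.3 ± 5.88 to 157.2 ± 19.7 CPM, and Sucla2, which forms succinate, from 115.2 ± 5.53 to 199.8 ± 45.4. The gene that fell, named after its values were seen, was Oxct1, which starts ketone body use (237.1 ± 7.40 to 184.6 ± 14.4 CPM, edgeR adjusted p = 0.0471). No gene of the list was called lower under upper quartile scaling, without a filter, with thinning, with the replicate block or with any 1 library left out. The count of 7 became 0 without WT replicate 1, 2 or 3 or knockout replicate 3 (edgeR, 12, 10, 9 and 13 at an unadjusted p under 0.05), 1 without knockout replicate 2 and 2 with the replicate block.

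Of 47 other receptors for lipids and metabolites tested, 2 rose and 6 fell, beside 4.23% and 3.42% of all tested genes, and the median log2 change was -0.19. Ptger3, a prostaglandin E receptor coupled to inhibitory G proteins, went up from 18.5 ± 2.05 to 32.4 ± 1.83 CPM (edgeR adjusted p = 0.00819), and Adora1, the adenosine receptor that restrains lipolysis, from 108.9 ± 8 to 217.0 ± 57.3. Cnr1, a cannabinoid receptor, fell from 15.1 ± 2.74 to 7.43 ± 0.762 CPM, and S1pr1, a sphingosine-1-phosphate receptor, from 171.2 ± 19.1 to 116.9 ± 4.95. The beta-adrenergic receptor of fat cells, Adrb3, had a log2 change of -0.29 ± 0.17 SE (edgeR adjusted p = 0.320). The count of 8 was 1 without WT replicate 2, 2 without WT replicate 3, 3 and 4 without knockout replicates 2 and 3, and 1 with the replicate block.

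**Figure D5:**
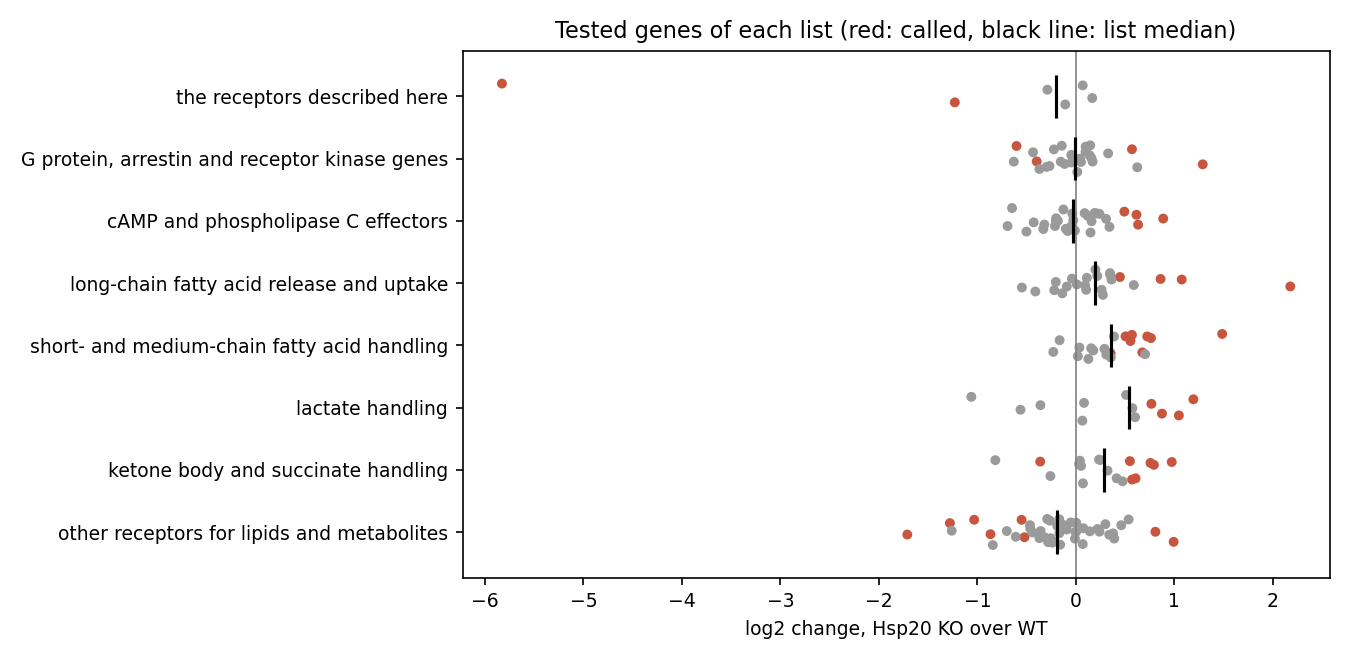
Log2 change of Hsp20 KO over WT for each tested gene of the receptors described here and of the 7 related lists (red, called by edgeR; gray, not called; black line, list median; points are spread vertically to separate them). Ffar1 at -5.83 has the lowest value drawn, and the ligand-handling lists have medians from 0.20 to 0.54.

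Genes whose pattern was most like that of Ffar1 were ranked by Pearson's r of log2 CPM over the 6 libraries, among 14680 other genes with a mean of at least 1 CPM. The first 5 were Tceanc2, Gas2l3, Slc12a8, Ube3a and Grk1, with r of at least 0.994 and log2 changes from -0.92 to -0.39. Their changes were much smaller than that of Ffar1, and with 3 libraries per group r mostly reads the step between the groups. For Hcar1, the most abundant receptor, the first 5 were Tlr3, B2m, Bmpr1a, Mnd1-ps and Faim, with r from 0.988 to 0.995.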

How the data were processed

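The values are raw counts, as the authors deposited them: whole numbers for each gene ID in each of the 6 libraries. Per the submitters' processing notes, bcl2fastq, CASAVA 1.8, TopHat and DESeq were used, with mm10 and GRCm38 as builds. No counter, gene model set or strand option is named in them. From 24415 gene IDs, 24334 matched to RefSeq symbols (GRCm38.p6). Exon and coding lengths came from GENCODE M21, since the RefSeq tables used hold no exon lengths. edgeR 4.0.16 in R 4.3.3 was used with filterByExpr (minimum count 10, minimum total 15), TMM scaling and the quasi-likelihood test with genotype as the only term. P-values were adjusted over all tested genes with Benjamini-Hochberg, and SEs are those implied by the F statistic. The test was checked on simulated counts. Counting intervals are exact binomial at 95%.

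The receptors and lists were chosen with earlier results of these data known. Named genes were the receptors, Hspb6, up to 4 called members per list with no overlap of the groups and the smallest p, 16 genes always named, and near Ffar1 the 3 nearest tested genes on each side and the 4 calls with the smallest p. Alternatives were DESeq2 size factors, upper quartile scaling, other filters, DESeq2 1.42.0, limma-voom (limma 3.58.1), a replicate block, thinning and leaving out each library. Libraries of a group did not agree within sampling noise (smallest chi-square 17.9 times its degrees of freedom). Figures were drawn with matplotlib. The values of 1 called macrophage marker are not reported here.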

Additional observations from a re-analysis of the deposited data

How the results depend on the processing

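Ffar1 and Ffar2 were called lower under DESeq2 size factors, upper quartile scaling, both other filters, DESeq2, limma-voom, the replicate block and thinning to the smallest library. With 1 library left out, the receptors called ran from 1 to 2 of those tested, and Ffar1 was among them each time. The receptors that changed sign, none of them called, were Ffar4 without WT replicate 3 (-0.12) or knockout replicate 3 (-0.07), Hcar2 without knockout replicate 3 (-0.15) and Sucnr1 without knockout replicate 1 (0.14). With 1 library left out Ffar4 ran from -0.12 to 0.29, Hcar2 from -0.15 to 0.33 and Sucnr1 from -0.44 to 0.14.

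All genes called numbered 1223, with 2159 by DESeq2, 395 with the replicate block and from 128 to 1671 with 1 library left out. Same-numbered libraries did not deviate together (r = -0.038, 0.092 and -0.096, beside -0.084 to 0.120 for different numbers). The labels do not say whether they share anything besides the number. With the replicate block the calls were 6 near Ffar1, 0 for G proteins, arrestins and receptor kinases (10 at an unadjusted p under 0.05; DESeq2 called 8), 1 for cAMP and phospholipase C effectors, 1 for long-chain and 1 for short- and medium-chain fatty acids, 2 for lactate (DESeq2 called 9), 2 for ketone bodies and succinate and 1 for other receptors. With 1 library left out, edgeR's calls in that order ran from 3 to 14, 0 to 4, 1 to 4, 0 to 4, 1 to 10, 0 to 6, 0 to 8 and 1 to 7. Hspb6 ran from -1.99 to -0.64. By Spearman's rho, where 118 genes tied at the top for Ffar1 and 18 for Hcar1, 0 and 1 of the 5 most like genes were shared. The WT order of levels was the same by coding length and with DESeq2 size factors. Among marker lists DESeq2 called 8 macrophage, 6 neutrophil and 2 adipocyte genes against 1, 3 and 1 by edgeR, which called 2 macrophage and 5 neutrophil genes without a filter and 2 macrophage genes with thinning, and limma-voom called 6 brown fat genes against 10. With 1 library left out, marker calls ran from 0 to 9 for macrophages, 1 to 4 for neutrophils, 0 to 3 for adipocytes, 2 to 10 for brown fat, 3 to 6 for blood cells, 0 to 4 for mast cells, 0 to 1 for dendritic and T cells and 0 to 7 for B cells. With the replicate block brown fat had 4, neutrophils 2, and macrophages and dendritic cells 0 (10 and 2 at an unadjusted p under 0.05). Depth limits Ffar1 in knockout, Ffar3 and Gpr84.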
